A study of Homo sapiens with 12 samples.

Results

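Liver progenitor, oncofetal and stem cell markers were followed in spheroids of HepG2, a human liver carcinoma cell line. The set holds 10 named genes: PROM1, ALCAM, CD24, EPCAM, CD44, LIN28B, AFP, GPC3, KRT19 and SOX9. They were chosen by name, with earlier results of these data known, as markers of fetal liver, bile duct and stem-like tumour cells. All 10 were measured among 18404 genes. Each gene is represented by its brightest probe set, a group of short array probes summarised to 1 value, among those annotated to that gene alone. EPCAM has 2 such probe sets and the other 9 genes have 1. Of the genes, PROM1 and AFP lie on chromosome 4, CD24 and LIN28B on chromosome 6, KRT19 and SOX9 on chromosome 17. ALCAM lies on chromosome 3, EPCAM on chromosome 2, CD44 on chromosome 11 and GPC3 on chromosome X.

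The 12 Affymetrix arrays were made from HepG2 spheroids aged 10 days in 3 groups of 4 arrays: HIF-2α knockdown, HIF-1α knockdown and wild type. The labels name no further treatment, and the design text gives 4 separate spheroid cultures for each genotype. The knockdown method, the number of cell clones and any control construct in the wild type cells are not named in these sources. RNA was amplified with a kit for very small samples, which the labels describe as applied to 250 microdissected cells.

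During liver development, bipotent progenitors give rise to hepatocytes and to bile duct cells. Oncofetal genes are active in the fetal liver, silent in the adult organ and often active again in liver cancer. Surface proteins of such immature cells are widely used to sort tumour cells that form spheres and new tumours. HIF-1α (gene HIF1A) and HIF-2α (gene EPAS1) are the oxygen-regulated parts of transcription factors that bind short DNA motifs near their target genes when oxygen is scarce, as it can be inside a spheroid.

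Values are the authors' deposited log2 expression levels, so that a difference of 1 is a doubling of signal. They are given in the order of replicates 1 to 4, and means carry the SD over n = 4 arrays. Differences were tested with limma, a linear model fitted here to all 12 arrays and all 18404 genes. SE is its standard error, and a gene was called when its Benjamini-Hochberg adjusted p lay below 0.05. The 2 comparisons with wild type share the same 4 wild type arrays.

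HIF1A had 9.25, 9.58, 9.38 and 9.64 in HIF-1α knockdown (9.46 ± 0.18), against 10.74, 10.64, 10.79 and 10.62 in wild type (10.70 ± 0.08). The knockdown thus held 42.5% of the wild type signal (log2 difference -1.23, SE 0.15, limma adjusted p = 0.00241). EPAS1 had 9.67, 10.02, 9.87 and 9.98 in HIF-2α knockdown (9.89 ± 0.16), against 10.96, 10.83, 10.97 and 11.26 in wild type (11.01 ± 0.18), so that knockdown held 46.0% (log2 difference -1.12, SE 0.09, limma adjusted p = 0.000206). No array of a knockdown group overlapped with wild type for its own target, and the two-sided exact permutation p was 0.0286 for each gene, the smallest that 4 against 4 arrays can give. HIF1A itself had 10.94 ± 0.39 on the HIF-2α knockdown arrays, not called against wild type (0.24, SE 0.15, limma adjusted p = 0.587). Array medians lay between 7.29 and 7.41. The floor of 3 arrays, HIF-2α knockdown replicate 4 and the wild type replicates numbered 1 and 2, was raised: their 0.1 percentile lay between 6.33 and 6.35, against 6.11 to 6.23 elsewhere. On the first principal component HIF-2α knockdown replicate 2 lay at 25.3, away from the other arrays at -11.8 to 3.3. The mean level of 6 hepatocyte markers was 11.20 to 12.22 per array, that of 5 endothelial markers 6.99 to 7.14 and of 6 stromal markers 7.31 to 7.49. It was 8.25 to 8.50 for 6 leukocyte markers and 8.37 to 8.75 for 3 measured bile duct cell markers. These last 2 means mix bright genes with genes near the floor. In wild type LYZ had 13.44 and CD68 9.93, against 6.55 for PTPRC, 6.81 for AIF1 and 6.71 for CD163. Of the bile duct cell markers SPP1 had 12.51, against 7 for KRT7 and 6.53 for CFTR. The called markers were the hepatocyte gene FGB, in all 3 comparisons, the stromal receptor PDGFRB and CD14. PDGFRB was lower in HIF-2α knockdown than in wild type (-0.40, limma adjusted p = 0.0109) and than in HIF-1α knockdown. CD14 was lower in HIF-2α knockdown than in HIF-1α knockdown. The part of these markers in the results was not tested.

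In HIF-1α knockdown against wild type, 3 of the 10 markers were called: LIN28B was higher, and ALCAM and PROM1 were lower. Over all genes 177 were called, a background of 0.962%, with 0.815% higher and 0.147% lower. These were 150 higher and 27 lower genes, against 140 and 114 after quantile normalization, which gives all arrays 1 common distribution. The median log2 difference of the 10 markers was -0.25, beside 0 over all genes, and 8 of the 10 differences were negative. The top of the signal range was also lower in HIF-1α knockdown (mean 99.9th percentile 13.44, against 14.06 in wild type). Its part in the marker differences was not tested. The arrays of the 2 groups did not overlap for 5 markers, which was the case for 7.84% of all genes.

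In HIF-2α knockdown against wild type, 2 of the 10 were called: PROM1 was higher and CD24 was lower. The background was 145 genes or 0.788%, with 0.478% higher and 0.31% lower. These were 88 higher and 57 lower genes, against 141 and 263 after quantile normalization and 34 and 38 with each array centred on its median. The median of the markers was 0.04, beside -0.01 over all genes, with 7 positive differences. For 2 markers the groups did not overlap, against 5.31% of all genes.

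Set against each other, the knockdowns differed in 3 of the 10 markers, with PROM1 and ALCAM higher and CD24 lower in HIF-2α knockdown than in HIF-1α knockdown. The background there was 509 genes or 2.77%, with 0.967% higher and 1.8% lower. The median difference of the markers was 0.40, beside -0.01 over all genes, and 8 were positive. The mean 99.9th percentile of the arrays was also higher in HIF-2α knockdown (13.89) than in HIF-1α knockdown (13.44), and its part was not tested. For 4 markers the arrays did not overlap, against 9.08% of all genes. The share of markers called was above the background in each comparison, but it rests on 2 or 3 genes, and the list was not tested as a set. The markers were also chosen with earlier results of these data known, so this share cannot be read as a result about the list.

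**Figure D1:**
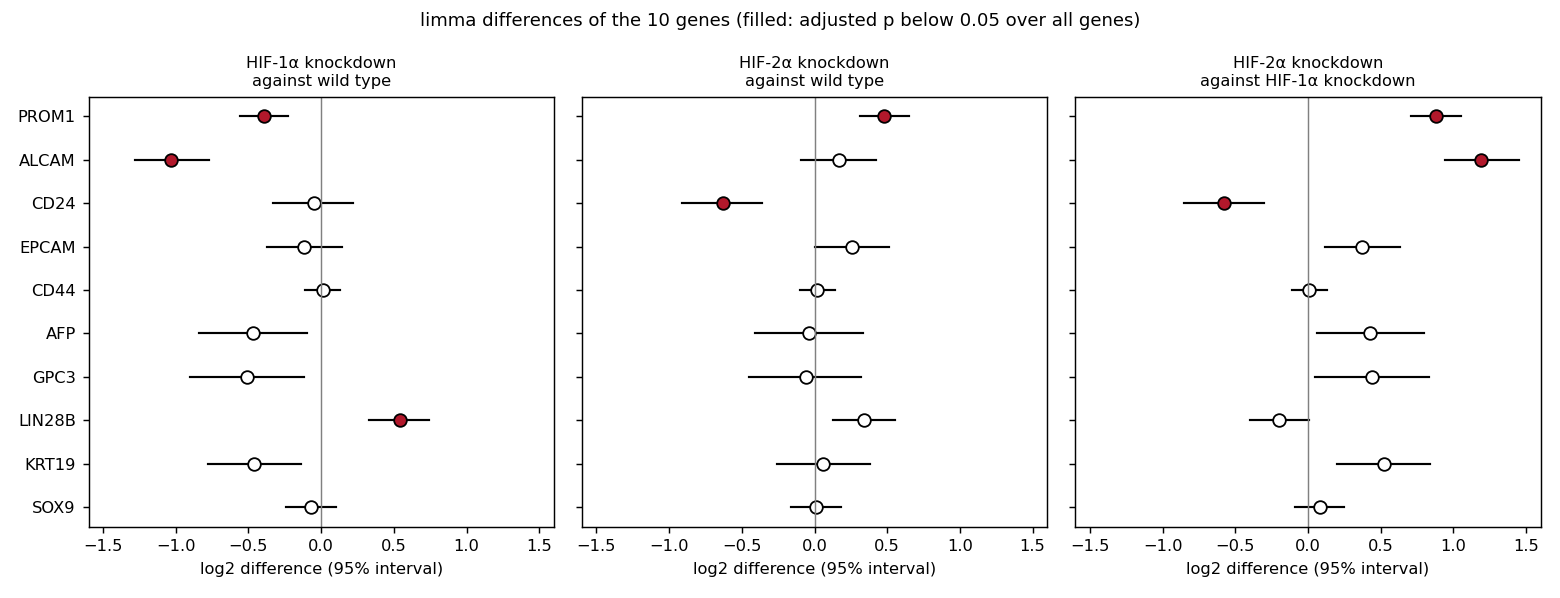
Log2 differences of the 10 markers with 95% confidence intervals from limma, 1 panel for each of the 3 comparisons (n = 4 arrays per group). Filled points are called at an adjusted p below 0.05: ALCAM reached -1.03 in HIF-1α knockdown against wild type and 1.19 in HIF-2α knockdown against HIF-1α knockdown, while SOX9 and CD44 lay within 0.08 of 0 in all 3.

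PROM1 encodes CD133, a protein of membrane protrusions that is used to sort progenitor cells and stem-like tumour cells. It had 8.51, 8.53, 8.42 and 8.68 on the HIF-2α knockdown arrays (8.54 ± 0.10). On the HIF-1α knockdown arrays it had 7.63, 7.51, 7.69 and 7.81 (7.66 ± 0.13), and on the wild type arrays 7.90, 8.02, 8.17 and 8.12 (8.05 ± 0.12). The groups formed 3 separate bands, with HIF-2α knockdown at the top, HIF-1α knockdown at the bottom and wild type between them, and no array crossed from its band to another. PROM1 was 1.40-fold higher in HIF-2α knockdown than in wild type (log2 difference 0.48, SE 0.08, limma adjusted p = 0.0123) and 1.31-fold lower in HIF-1α knockdown than in wild type (-0.39, SE 0.08, limma adjusted p = 0.0326). Between the knockdowns it differed by 0.88 (SE 0.08, 1.84-fold, limma adjusted p = 5.54e-05). PROM1 was the only marker called in all 3 comparisons.

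The lower level of PROM1 in HIF-1α knockdown was no longer called without wild type replicate 2 or 4 or without HIF-1α knockdown replicate 1, 2 or 3, with limma adjusted p between 0.0674 and 0.123 then, nor with each array centred on its median (-0.41, limma adjusted p = 0.0567). Without the 3 raised-floor arrays, which leaves 2 wild type arrays, it was -0.49 (limma adjusted p = 0.0819), and the difference in HIF-2α knockdown was 0.35 (limma adjusted p = 0.165). The difference between the knockdowns was still called then, at 0.83 (limma adjusted p = 0.00202).

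The promoter of PROM1 is shown because it is the marker called in every comparison. RefSeq gives 4 start windows for the gene, each from 250 bases before to 50 after a start of transcription, and the one furthest 5′ is printed from build GRCh38.p14, minus strand, chr4:16083974-16084273. Capitals mark the core of the motif bound by HIF factors, searched on both strands. The first form searched was ACGTG, which on the opposite strand is spelled with the letters CACGT when read in the printed direction. The second form was GCGTG, which on the opposite strand is spelled in the same way as CACGC, and no matches overlap in the windows printed here. In the printed window the first form begins 77 bases before the start and the second one, on the opposite strand, 8 bases after it. The other 3 windows hold 1 match each.
PROM1: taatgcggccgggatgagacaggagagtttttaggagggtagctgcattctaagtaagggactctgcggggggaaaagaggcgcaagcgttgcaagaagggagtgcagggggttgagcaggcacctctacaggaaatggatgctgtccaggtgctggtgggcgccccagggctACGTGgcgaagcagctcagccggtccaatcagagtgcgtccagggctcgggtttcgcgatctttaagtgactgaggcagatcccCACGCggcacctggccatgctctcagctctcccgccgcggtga
Such a 5-base match is common: 48.4% of the 35116 RefSeq promoter windows of this length hold at least 1 on either strand. The table held windows for 6 of the 10 markers (PROM1, ALCAM, CD24, LIN28B, AFP and CD44), 12 windows in all, of which 9 held a match. A match is only a run of letters and no measured binding site.

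ALCAM, or CD166, is an adhesion molecule of the immunoglobulin superfamily that binds itself on neighbouring cells and is also used as a stem cell marker. It had 9.91, 10.03, 9.41 and 9.82 on the HIF-2α knockdown arrays (9.79 ± 0.27). The HIF-1α knockdown arrays had 8.66, 8.68, 8.41 and 8.65 (8.60 ± 0.13), and the wild type arrays had 9.69, 9.79, 9.45 and 9.58 (9.63 ± 0.15). All 4 HIF-1α knockdown arrays lay below all other arrays, and the HIF-2α knockdown and wild type arrays overlapped. ALCAM was 2.04-fold lower in HIF-1α knockdown than in wild type (log2 difference -1.03, 95% interval -1.28 to -0.77, limma adjusted p = 0.00146), the largest difference from wild type among the 10 markers. In HIF-2α knockdown the difference from wild type was 0.17, with a 95% interval from -0.09 to 0.42 (limma adjusted p = 0.653). The knockdowns differed by 1.19, with ALCAM 2.28-fold higher in HIF-2α knockdown than in HIF-1α knockdown (SE 0.12, limma adjusted p = 0.00012).

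No single left-out array ended either call of ALCAM. The limma adjusted p stayed between 0.000136 and 0.0109 against wild type and between 1.14e-05 and 0.000872 between the knockdowns. Without the 3 raised-floor arrays the difference from wild type was -0.91 and not called (limma adjusted p = 0.0978), and the one between the knockdowns was 1.18 (limma adjusted p = 0.00752).

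The ALCAM promoter is printed because ALCAM moved most. It is the single window in the RefSeq table, plus strand, chr3:105366659-105366958 in GRCh38.p14, with the second form of the motif, on the opposite strand, in capitals 195 and 23 bases before the start.
ALCAM: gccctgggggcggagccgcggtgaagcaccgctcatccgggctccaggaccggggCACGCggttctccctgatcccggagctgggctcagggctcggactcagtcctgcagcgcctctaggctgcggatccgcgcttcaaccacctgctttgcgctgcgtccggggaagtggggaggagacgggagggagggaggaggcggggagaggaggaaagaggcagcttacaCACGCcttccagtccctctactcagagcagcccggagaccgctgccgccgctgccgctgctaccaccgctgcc

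**Figure D2:**
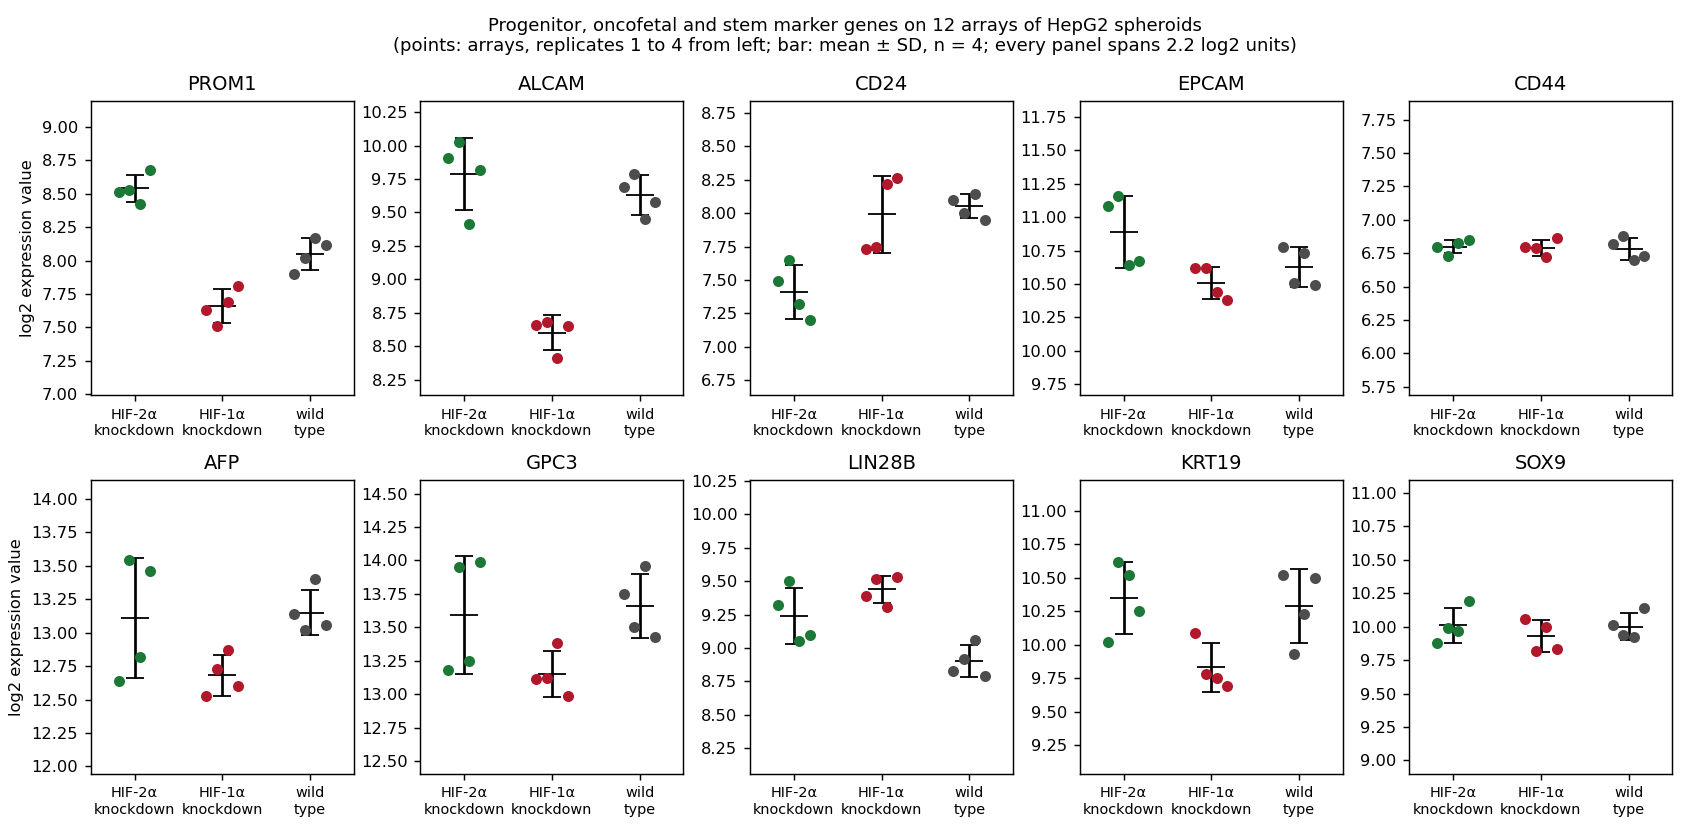
Deposited log2 level of each of the 10 markers on each array, 1 panel per gene, with HIF-2α knockdown, HIF-1α knockdown and wild type from left to right. Points are arrays and bars are group means with the SD (n = 4): PROM1 forms 3 separate bands around 8.54, 7.66 and 8.05, and ALCAM is low on the HIF-1α knockdown arrays alone.

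CD24 is a small, heavily glycosylated surface protein with a lipid anchor, found on immature liver cells and on liver tumour cells that survive treatment. It had 7.49, 7.65, 7.32 and 7.20 on the HIF-2α knockdown arrays (7.41 ± 0.20). On the HIF-1α knockdown arrays it had 7.73, 7.75, 8.22 and 8.26 (7.99 ± 0.29), and on the wild type arrays 8.10, 8.0, 8.14 and 7.95 (8.05 ± 0.09). The HIF-2α knockdown arrays lay below all others, and HIF-1α knockdown overlapped with wild type. CD24 was 1.55-fold lower in HIF-2α knockdown than in wild type (log2 difference -0.63, SE 0.13, limma adjusted p = 0.0401) and 1.49-fold lower than in HIF-1α knockdown (-0.58, SE 0.13, limma adjusted p = 0.0285). In HIF-1α knockdown the difference from wild type was -0.05, with a 95% interval from -0.33 to 0.22 (limma adjusted p = 0.907).

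Both calls of CD24 depended on single arrays and on the processing. The one against wild type was lost without any 1 of the 4 wild type arrays and without HIF-2α knockdown replicate 1, 3 or 4 (limma adjusted p 0.0637 to 0.103). The one between the knockdowns was lost without HIF-1α knockdown replicate 3 or 4 or HIF-2α knockdown replicate 3 or 4 (limma adjusted p 0.0756 to 0.112). Without the 3 raised-floor arrays the differences were -0.56 and -0.50, neither called (limma adjusted p = 0.295 and 0.196). Centring of each array gave -0.63 and -0.56, again not called (limma adjusted p = 0.0857 and 0.0684). Array weights ended the call against wild type (-0.67, limma adjusted p = 0.0856), and a fit to those 2 groups alone ended the one between the knockdowns (-0.58, limma adjusted p = 0.0752). RefSeq lists 5 pseudogenes of CD24, and whether its probes also read them was not tested.

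**Figure D3:**
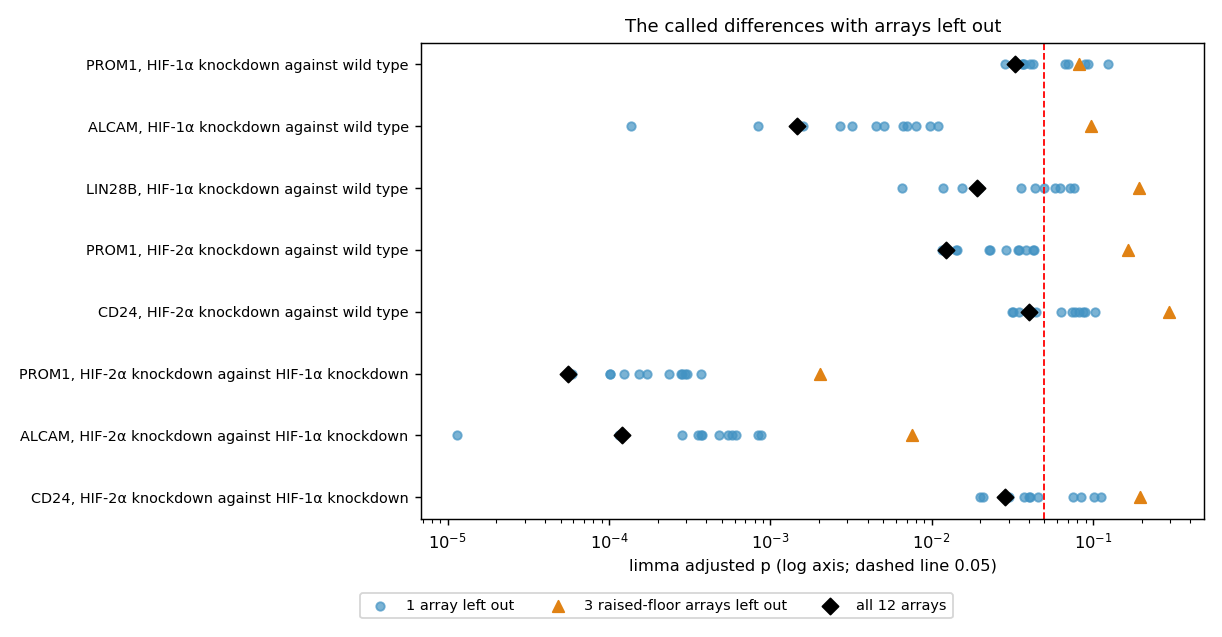
Limma adjusted p (log axis) of the 8 called marker differences with all 12 arrays, with each array left out in turn and with the 3 raised-floor arrays left out. The dashed line is 0.05: every point of ALCAM and PROM1 in HIF-2α knockdown against HIF-1α knockdown lies left of it, and the points of CD24, of LIN28B and of PROM1 in HIF-1α knockdown fall on both sides. Against wild type, ALCAM in HIF-1α knockdown and PROM1 in HIF-2α knockdown lie right of it only without the 3 raised-floor arrays.

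EPCAM is an epithelial adhesion molecule that is present on liver progenitors and bile duct cells and lost in mature hepatocytes. Its brighter probe set had 11.08, 11.16, 10.64 and 10.67 on the HIF-2α knockdown arrays (10.89 ± 0.27). In HIF-1α knockdown it had 10.62, 10.62, 10.44 and 10.38 (10.51 ± 0.12), and in wild type it had 10.78, 10.51, 10.73 and 10.49 (10.63 ± 0.15). Every HIF-2α knockdown array lay above every HIF-1α knockdown array by a narrow margin, and both knockdowns overlapped with wild type. None of its 3 differences was called: 0.26 in HIF-2α knockdown against wild type, -0.12 in HIF-1α knockdown against wild type and 0.37 between the knockdowns (limma adjusted p = 0.411, 0.757 and 0.136).

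The second EPCAM probe set had 11.02, 11.16, 10.76 and 10.79 on the HIF-2α knockdown arrays (10.93 ± 0.19). Arrays of HIF-1α knockdown had 10.40, 10.42, 10.18 and 10.25 (10.31 ± 0.12), and wild type arrays had 10.52, 10.50, 10.51 and 10.46 (10.50 ± 0.03). Here the 3 groups were separate. In a fit over all probe sets with 1 gene symbol it was higher in HIF-2α knockdown than in wild type (0.44, SE 0.09, limma adjusted p = 0.0334) and than in HIF-1α knockdown (0.62, SE 0.09, limma adjusted p = 0.00165). In HIF-1α knockdown it differed from wild type by -0.18 (SE 0.09, limma adjusted p = 0.393). The probe sets gave the same sign in every comparison but disagreed on the calls. The mean of both was called between the knockdowns (0.50, limma adjusted p = 0.017), and which transcripts each probe set reads was not tested.

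**Figure D4:**
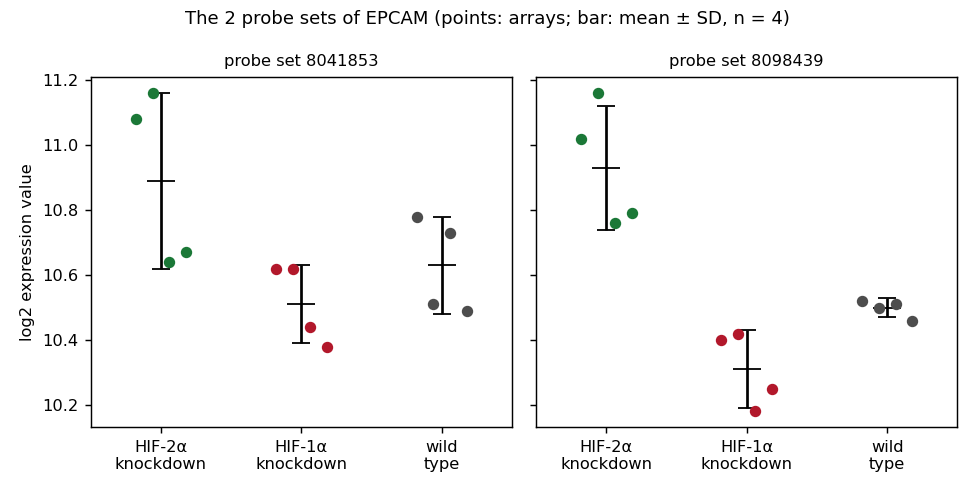
Log2 level of the 2 EPCAM probe sets on each array, with HIF-2α knockdown, HIF-1α knockdown and wild type from left to right (bars, mean and SD, n = 4). The brighter probe set overlaps between HIF-2α knockdown and wild type, and in the second one all HIF-2α knockdown arrays lie at 10.76 or higher and all wild type arrays at 10.52 or lower.

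CD44, the receptor for hyaluronan in the extracellular matrix, completed the surface markers. Its values ran from 6.73 to 6.85 on the HIF-2α knockdown arrays, from 6.72 to 6.86 on the HIF-1α knockdown arrays and from 6.70 to 6.88 on the wild type arrays. These values lay close to the floor of the arrays on all 12, and without detection calls a level there cannot be told from no signal. The differences were 0.02 in HIF-2α knockdown against wild type, 0.01 in HIF-1α knockdown against wild type and 0.01 between the knockdowns, with limma adjusted p between 0.927 and 0.974.

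LIN28B, an RNA-binding protein of fetal liver and of liver cancer, blocks the maturation of the let-7 microRNAs. It had 9.32, 9.50, 9.05 and 9.10 on the HIF-2α knockdown arrays (9.24 ± 0.21). The HIF-1α knockdown values were 9.39, 9.52, 9.31 and 9.53 (9.44 ± 0.10), and the wild type values were 8.83, 8.92, 9.06 and 8.79 (8.90 ± 0.12). All HIF-1α knockdown arrays lay above all wild type arrays, while HIF-2α knockdown replicate 3 fell just below the highest wild type array. LIN28B was 1.45-fold higher in HIF-1α knockdown than in wild type (log2 difference 0.54, SE 0.10, limma adjusted p = 0.0191). In HIF-2α knockdown the difference was 0.34 (95% interval 0.13 to 0.55, limma adjusted p = 0.13), and between the knockdowns it was -0.20 (95% interval -0.40 to 0.01, limma adjusted p = 0.404). The second of these intervals holds 0, so a difference between the knockdowns was not shown for LIN28B.

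Its call was lost without wild type replicate 1 or 4 or HIF-1α knockdown replicate 2 or 4 (limma adjusted p 0.0583 to 0.0759) and with each array centred (0.52, limma adjusted p = 0.0646). Leaving out the 3 raised-floor arrays gave 0.51 (limma adjusted p = 0.192). The LIN28B window furthest 5′ of 2 is printed because LIN28B was the marker that rose in HIF-1α knockdown. It is chr6:104940715-104941014, plus strand, GRCh38.p14, with the first form of the motif, on the opposite strand, 16 bases before the start.
LIN28B: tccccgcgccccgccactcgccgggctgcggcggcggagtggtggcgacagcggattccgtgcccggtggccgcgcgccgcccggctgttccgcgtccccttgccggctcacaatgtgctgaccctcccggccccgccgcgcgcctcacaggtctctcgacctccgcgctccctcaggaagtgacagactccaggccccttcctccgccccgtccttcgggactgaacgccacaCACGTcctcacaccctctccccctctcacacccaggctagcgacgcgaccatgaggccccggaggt

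The let-7 family that LIN28B acts on shares 1 seed, the stretch that pairs with target messages (bases 2 to 8, in capitals). Mature sequences of 3 members from RefSeq, which lie on the plus strand at chr9:94175962-94175983 and chr9:94176353-94176374 and on the minus strand at chr3:52268336-52268357 in GRCh38.p14, show it.
let-7a-5p: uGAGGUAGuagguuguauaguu
let-7f-5p: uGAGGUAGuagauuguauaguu
let-7g-5p: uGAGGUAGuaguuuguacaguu
The array reads 9 let-7 genes, which were looked up after the values of LIN28B were seen. None was called by limma in any comparison, with adjusted p of 0.0917 or more and 0, 1 and 1 genes at an unadjusted p below 0.05 in HIF-2α knockdown against wild type, HIF-1α knockdown against wild type and between the knockdowns, and their levels of 6.34 to 7.47 lay near the floor. Such probe sets read precursor transcripts, so mature let-7 was not measured. Of 12 measured let-7 targets and further oncofetal genes, among them IGF2BP1, IGF2BP3 and HMGA1, none was called by limma in any comparison. At an unadjusted p below 0.05 they were 1 in HIF-2α knockdown against wild type, 4 in HIF-1α knockdown against wild type and 3 between the knockdowns, beside 12%, 13.2% and 13.6% of all genes in that order. Their median differences were -0.01, 0.04 and 0.04 in that order. In HIF-1α knockdown against wild type 7 of the 12 differences were positive and 5 negative. The largest were those of PEG10 (-0.54, limma adjusted p = 0.133) and TRIM71 (-0.37, limma adjusted p = 0.0762). PEG10, with a mean of 13.32 in wild type, lay near the top of the signal range.

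AFP, alpha-fetoprotein, is the main serum protein of the fetal liver and a blood marker of liver cancer. It had 12.64, 13.54, 12.82 and 13.46 on the HIF-2α knockdown arrays (13.11 ± 0.45). In HIF-1α knockdown it had 12.53, 12.73, 12.87 and 12.60 (12.68 ± 0.15), and in wild type it had 13.14, 13.02, 13.40 and 13.06 (13.15 ± 0.17). The HIF-1α knockdown arrays lay below all wild type arrays, and the HIF-2α knockdown arrays split into a low pair, replicates 1 and 3, and a high pair, replicates 2 and 4. The difference was -0.47 in HIF-1α knockdown against wild type (95% interval -0.84 to -0.10, limma adjusted p = 0.234) and -0.04 in HIF-2α knockdown against wild type (95% interval -0.41 to 0.33, limma adjusted p = 0.957).

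GPC3, glypican-3, is a heparan sulfate carrier on the cell surface that is used in the diagnosis of liver cancer. It had 13.18, 13.95, 13.25 and 13.99 on the HIF-2α knockdown arrays (13.59 ± 0.44). Arrays of HIF-1α knockdown had 13.11, 13.12, 13.38 and 12.99 (13.15 ± 0.17), and wild type arrays had 13.75, 13.50, 13.96 and 13.43 (13.66 ± 0.24). The pattern was that of AFP, down to the same low and high pair of HIF-2α knockdown arrays. The differences from wild type were -0.51 in HIF-1α knockdown (95% interval -0.90 to -0.12, limma adjusted p = 0.21) and -0.06 in HIF-2α knockdown (limma adjusted p = 0.931). Between the knockdowns AFP differed by 0.43 and GPC3 by 0.44, neither called (limma adjusted p = 0.276 and 0.281).

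Both genes lie near the top of the signal range, and that top moved between arrays in the same way. The 99.9th percentile of an array was 13.50, 14.21, 13.52 and 14.32 in HIF-2α knockdown, 13.36, 13.42, 13.65 and 13.32 in HIF-1α knockdown and 14.23, 13.99, 14.20 and 13.80 in wild type. The mean level of 6 hepatocyte markers was also lowest in HIF-1α knockdown, at 11.67 to 12.22, 11.20 to 11.45 and 11.73 to 12.21 in these groups. Wild type means of the 6 ran from 9.72 for FGB to 13.93 for ALB. All 6 differences in HIF-1α knockdown against wild type were negative. Only FGB was called (-1.75, limma adjusted p = 9.03e-06). The other 5 ran from -0.22 for TTR to -0.74 for ALB (limma adjusted p from 0.0822 to 0.746). After quantile normalization the differences in HIF-1α knockdown against wild type were -0.10 for AFP and 0.01 for GPC3 (limma adjusted p = 0.571 and 0.946). That step sets the top of all arrays equal, so small differences of genes near the top follow largely by construction. The source of the shift was not tested. In bulk RNA, fewer cells of a type and less RNA per cell cannot be told apart.

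**Figure D5:**
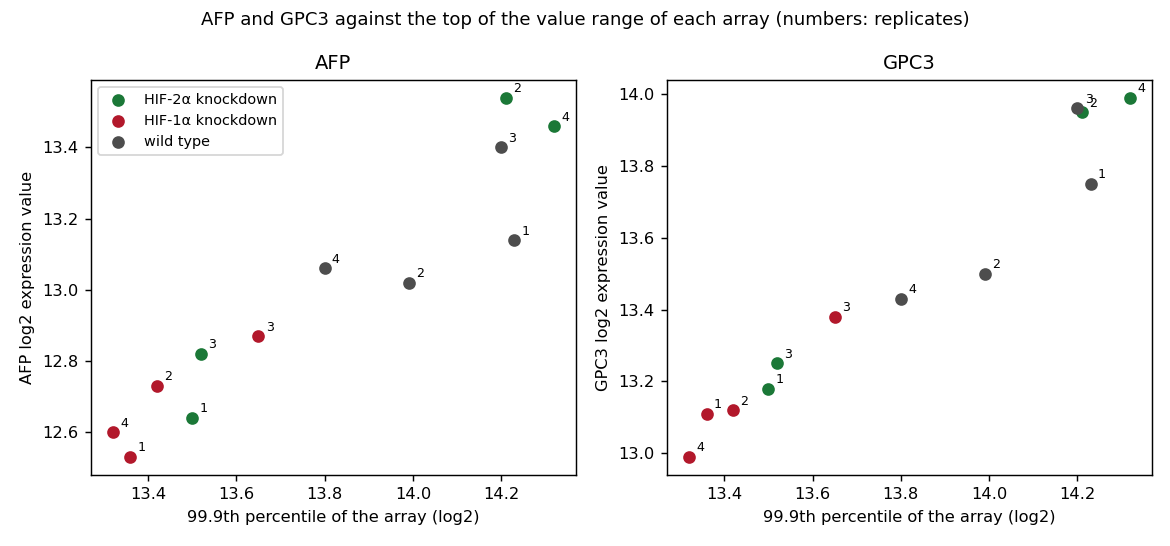
Log2 level of AFP and of GPC3 on each array (vertical axis) against the 99.9th percentile of all probe sets of that array (horizontal axis, log2), coloured by HIF-2α knockdown, HIF-1α knockdown and wild type. The HIF-1α knockdown arrays lie at percentile values of 13.32 to 13.65 and the wild type arrays at 13.80 to 14.23, and both genes run along with the percentile.

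KRT19, keratin 19, is a cytoskeletal filament of bile duct cells and of liver cancers with progenitor traits. It had 10.02, 10.62, 10.52 and 10.25 on the HIF-2α knockdown arrays (10.35 ± 0.27). The HIF-1α knockdown values were 10.09, 9.78, 9.75 and 9.69 (9.83 ± 0.18), and the wild type values were 10.52, 9.93, 10.23 and 10.50 (10.29 ± 0.28). HIF-1α knockdown replicates 2, 3 and 4 lay below all other arrays, and replicate 1 overlapped with both other groups. The difference was -0.46 in HIF-1α knockdown against wild type (95% interval -0.78 to -0.14, limma adjusted p = 0.16), 0.06 in HIF-2α knockdown against wild type (95% interval -0.26 to 0.38) and 0.52 between the knockdowns (SE 0.15, limma adjusted p = 0.0884). The last was called without HIF-2α knockdown replicate 1 (0.64, limma adjusted p = 0.0322). RefSeq lists 5 pseudogenes of KRT19, and whether its probes read them was not tested.

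SOX9, a transcription factor of bile duct cells and their precursors, had 9.88, 9.99, 9.97 and 10.19 on the HIF-2α knockdown arrays (10.01 ± 0.13). In HIF-1α knockdown it had 10.06, 9.82, 10.00 and 9.83 (9.93 ± 0.12), and in wild type it had 10.01, 9.94, 9.92 and 10.14 (10.00 ± 0.10). The 3 groups overlapped throughout. Its 95% intervals ran from -0.16 to 0.18 in HIF-2α knockdown against wild type, from -0.24 to 0.10 in HIF-1α knockdown against wild type and from -0.09 to 0.25 between the knockdowns, so changes larger than 0.25 in either direction lay outside all 3.

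Related genes were read from lists written with earlier results of these data known. Their counts stand against the backgrounds given above for called genes, and against 12% of all genes at an unadjusted p below 0.05 in HIF-2α knockdown against wild type, 13.2% in HIF-1α knockdown against wild type and 13.6% between the knockdowns. Of 19 further biliary and progenitor genes limma called none against wild type in either knockdown, and at an unadjusted p below 0.05 there were 5 in each, beside 12% of all genes in HIF-2α knockdown and 13.2% in HIF-1α knockdown. Between the knockdowns KRT23, an epithelial keratin, was lower in HIF-2α knockdown (mean 8.75) than in HIF-1α knockdown (mean 9.46, log2 difference -0.71, SE 0.11, limma adjusted p = 0.00357), as was DLK1, a Notch-family ligand of fetal liver progenitors (-0.39, SE 0.09, limma adjusted p = 0.0414). Of 10 measured pluripotency factors and of 13 Wnt and beta-catenin targets, limma called none in any comparison. At an unadjusted p below 0.05 these 2 lists held 1 and 2 genes in HIF-2α knockdown against wild type, 1 and 0 in HIF-1α knockdown against wild type, and 0 and 3 between the knockdowns, on the background of 12% to 13.6% of all genes. The 1 pluripotency factor in both comparisons with wild type was MYC, with a wild type mean of 10.86. It differed by -0.24 in HIF-2α knockdown (limma adjusted p = 0.363) and by -0.37 in HIF-1α knockdown (limma adjusted p = 0.108). SOX2, SALL4 and LIN28A lay close to the floor (6.89, 6.95 and 6.98 in wild type), where a level cannot be told from no signal. NANOG and POU5F1 were not measured. Of 13 other markers of liver cancer stem cells none was called in HIF-1α knockdown against wild type (3 at an unadjusted p below 0.05), and the transcription factor KLF5 was lower in HIF-2α knockdown than in wild type (-0.26, SE 0.05, limma adjusted p = 0.0305). Between the knockdowns ICAM1, an adhesion receptor for leukocytes, and ABCG2, a drug efflux pump, were lower in HIF-2α knockdown (-0.67 and -0.78, limma adjusted p = 0.00132 and 0.00546). ABCG2 and ICAM1 thus ran opposite to PROM1 and ALCAM in this comparison, but the other markers of that list did not share 1 direction. Over the 13 markers, 7 differences between the knockdowns were positive and 6 negative, with a median of 0 beside -0.01 over all genes. At an unadjusted p below 0.05 there were 4, beside 13.6% of all genes.

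Genes tied to single markers by function followed. Among 10 AFP regulators, ZHX2, a repressor of AFP in mouse liver, was lower in HIF-2α knockdown than in wild type (9.23 against 9.62, log2 difference -0.39, SE 0.07, limma adjusted p = 0.0271), and none was called in HIF-1α knockdown against wild type or between the knockdowns (2 each at an unadjusted p below 0.05). ALB, the adult relative of AFP, was not called in HIF-1α knockdown (-0.74, SE 0.19, limma adjusted p = 0.0822). Of 8 other glypicans and enzymes that trim their heparan sulfate, the sulfatase SULF2 was 1.56-fold higher in HIF-1α knockdown than in wild type (10.63 against 9.99, log2 difference 0.64, SE 0.12, limma adjusted p = 0.0229) and none was called in HIF-2α knockdown against wild type or between the knockdowns (1 and 2 at an unadjusted p below 0.05). Of 10 relatives and partners of ALCAM none was called against wild type, where 4 in HIF-2α knockdown and 5 in HIF-1α knockdown had an unadjusted p below 0.05, beside 12% and 13.2% of all genes. Between the knockdowns 4 of the 10 were called, beside 2.77% of all genes, and these lists were not tested as sets. Between the knockdowns MCAM, an adhesion molecule of the same superfamily (-0.38, limma adjusted p = 0.00381), ICAM1 and the tetraspanin CD9 (-0.69, limma adjusted p = 0.0228) were lower, and the neuronal adhesion molecule NRCAM was higher (0.30, limma adjusted p = 0.0254), in HIF-2α knockdown. NRCAM, with means of 6.99 in HIF-2α knockdown and 6.70 in HIF-1α knockdown, lay close to the floor, as CD44 did, where a level cannot be told from no signal. CD9 and FHL2, a nuclear partner of the EPCAM tail (-0.45, limma adjusted p = 0.0192), were the 2 called among 8 EPCAM partners, and MMP14, a protease that cleaves CD44, was the 1 called among 9 CD44 partners (-0.28, limma adjusted p = 0.0206), all between the knockdowns. Of 17 genes of the mature hepatocyte, TAT, which breaks down tyrosine (-0.29, limma adjusted p = 0.0193), and CPS1, of the urea cycle (0.38, limma adjusted p = 0.0474), were called between the knockdowns and none against wild type. At an unadjusted p below 0.05 there were 4 in HIF-2α knockdown and 6 in HIF-1α knockdown against wild type, beside 12% and 13.2% of all genes. In each of these comparisons with wild type, 14 of the 17 differences were negative. Their medians were -0.12 and -0.11, beside -0.01 and 0 over all genes. The largest was that of TF in HIF-1α knockdown (-0.77, limma adjusted p = 0.0503). TF and ALB, with wild type means of 13.9 and 13.93, lay near the top of the signal range, as AFP and GPC3 did. That top was lower in HIF-1α knockdown than in wild type, and its part in these differences was not tested. Others of the 17 genes, such as PCK1 with a wild type mean of 7.45, lay far below it.

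Of these related genes only KRT23, ICAM1, ABCG2 and MCAM kept their calls with each array left out in turn. SULF2 lost its call without wild type replicate 2 or 4 or HIF-1α knockdown replicate 1, 2 or 3 (limma adjusted p 0.0585 to 0.0813), and ZHX2 without wild type replicate 1 or 4 or HIF-2α knockdown replicate 2 or 3 (0.0585 to 0.0866). KLF5 lost its call without wild type replicate 2 or 4, HIF-1α knockdown replicate 2 or 3 or any 1 HIF-2α knockdown array (0.0513 to 0.0871). Between the knockdowns, the call of CD9 was lost without HIF-1α knockdown replicate 2 or 3 or HIF-2α knockdown replicate 2, 3 or 4 (0.0535 to 0.0931), that of FHL2 without HIF-1α knockdown replicate 2, 3 or 4 or HIF-2α knockdown replicate 2 or 4 (0.0503 to 0.0807), and that of NRCAM without HIF-1α knockdown replicate 1, 2 or 3 or HIF-2α knockdown replicate 2 or 4 (0.0628 to 0.103). MMP14 was lost without HIF-1α knockdown replicate 3 or 4 or HIF-2α knockdown replicate 4 (0.0517 to 0.0761) and TAT without HIF-1α knockdown replicate 2 or 3 or HIF-2α knockdown replicate 4 (0.0621 to 0.0726). DLK1 was lost without wild type replicate 1 or 4, HIF-1α knockdown replicate 1 or 3 or any 1 HIF-2α knockdown array (0.0505 to 0.146). CPS1 was lost without wild type replicate 1, 2 or 4, any 1 HIF-1α knockdown array or HIF-2α knockdown replicate 1 or 4 (0.0557 to 0.148). Without the 3 raised-floor arrays the calls of ICAM1, ABCG2, FHL2 and MCAM held and those of the others were lost. Centring of each array ended the calls of SULF2, ZHX2, DLK1, NRCAM and CPS1 (limma adjusted p = 0.0646, 0.0552, 0.0837, 0.0595 and 0.101), and quantile normalization that of SULF2 (0.57, limma adjusted p = 0.0737). A fit to the arrays of the 2 groups alone ended those of KLF5, ZHX2, DLK1 and CPS1 (limma adjusted p = 0.149, 0.086, 0.0582 and 0.0925). Array weights ended those of KLF5 and DLK1 (0.0878 and 0.0584), an intensity trend those of DLK1 and CPS1 (0.0987 and 0.06), and the filter on low levels that of KLF5 (0.0881). That filter removed MMP14 and NRCAM, so their calls were not tested under it.

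The genes whose levels ran most like those of the 3 markers with the smallest adjusted p were found by Pearson correlation over the 12 arrays, which mixes differences between groups with those within them. For PROM1 they were CARMIL1 (r = 0.97), CUBN (0.944), SCMH1 (0.941) and NFKBIZ (0.94). For ALCAM they were HIF1A (0.964), LRRTM4 (0.958), DOCK9 (0.957) and FGB (0.956). For LIN28B they were AZI2 (0.957), GALNT13 (0.952), ALG13 (0.951) and FAM177A1 (0.95). The closest profile to that of ALCAM was thus the transcript targeted in HIF-1α knockdown, with means of 10.94 in HIF-2α knockdown, 9.46 in HIF-1α knockdown and 10.70 in wild type. After each group's mean was subtracted, r was 0.63 for ALCAM with HIF1A, 0.51 for PROM1 with CARMIL1 and 0.92 for LIN28B with AZI2, while it was -0.05 for PROM1 with CUBN.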

How the data were processed

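The table holds the authors' deposited log2 values of 32321 probe sets on 12 arrays. Base 2 was taken from the range of the values, 5.93 to 15.05. How the signals were background-corrected, summarised and normalised is not stated in these sources. No value was transformed or filtered before the tests. The files give no counts or detection calls, so the number of arrays limits the precision.

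Groups and replicate numbers were taken from the labels. The design text gives 4 spheroid experiments per genotype. Gene names came from the platform annotation, which gives 1 gene symbol to 19158 probe sets, several to 1388 and none to 11775. Symbols were brought up to RefSeq's annotation of GRCh38.p14 by Entrez identifier (19128 matched, 4 matched by symbol, 26 kept). The brightest probe set over the 12 arrays stood for each of the 637 genes that had several, which left 18404 genes.

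Tests used limma 3.58.1 (R 4.3.3): a mean for each group was fitted to all 12 arrays together with lmFit, followed by eBayes and Benjamini-Hochberg adjustment over all genes within a comparison. In values simulated from the means and spreads of the 18404 genes, the fit recovered 48% of genes changed by 1.25-fold and 86% of those changed by 1.5-fold in HIF-1α knockdown against wild type. For HIF-2α knockdown against wild type these shares were 58% and 94%, and between the knockdowns 48% and 92%. The noise was drawn independently for each gene and array, without shifts shared by the genes of an array. These shares thus hold for that setting and were not shown for the real arrays. Exact permutation tests, correlations, motif searches and figures used Python 3.11.15 with scipy 1.17.1, pandas 2.3.3, numpy 2.4.6 and matplotlib 3.10.9.

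The 10 markers, the 12 lists of related genes and the alternative settings were chosen with earlier results of these data known. The text names all 10 markers, HIF1A, EPAS1, up to 4 called genes of each list with the smallest p in each comparison, and the 4 genes that correlate best with each of 3 called markers. Examples of genes that were not called, and the let-7 genes, were named after their values were seen.
The alternatives were quantile normalization, centring of each array, only the arrays of the 2 groups, no raised-floor arrays, a replicate block, an intensity trend, array weights, a filter on low levels, the mean of a gene's probe sets and each array left out in turn.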

Additional observations from a re-analysis of the deposited data

Results flagged for a closer look

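Among 36 sets of 4 arrays, 3 groups for each of the 10 markers, HIF1A and EPAS1, 1 set held an array far from the others of its group. HIF-1α knockdown replicate 3 was the lowest of its group for ALCAM, at 8.41 against 8.65 for the nearest array. That gap is 0.873 of the group's range and lies past Dixon's critical value for 4 arrays. Chance puts about 1 in 20 such sets past this value. Without that array ALCAM in HIF-1α knockdown was still called lower than in wild type.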

How the results depend on the processing

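Over the alternatives that do not leave out a single array, 240 of 267 marker differences kept their direction and their side of the threshold, 13 lost a call, 3 gained one and 11 changed sign, and with each array left out 320 of 360 kept both. The markers called in HIF-1α knockdown against wild type, 3 of 10, were 1 with each array centred on its median (PROM1 -0.41 and LIN28B 0.52 were lost) and 0 without the 3 raised-floor arrays. In HIF-2α knockdown against wild type, 2 of 10, they were 1 with centring, with the replicate block and with array weights, CD24 being lost each time (-0.63, -0.63 and -0.67), and 0 without the raised-floor arrays. With 1 array left out these counts ran from 1 to 3, from 1 to 2 and, between the knockdowns, from 2 to 4, with 1 in HIF-1α knockdown without wild type replicate 4 or HIF-1α knockdown replicate 2. The labels do not say that the replicate numbers pair the arrays, and the data did not settle it. Same-numbered arrays' deviations from their group means correlated at -0.04 to 0.64 in HIF-1α knockdown and wild type, -0.17 to -0.03 in HIF-2α knockdown and wild type and 0.03 to 0.22 in the knockdowns, and 4, 0 and 1 of 8 arrays correlated best with their own number. With the numbers as a block, 3, 1 and 3 markers and 234, 202 and 562 genes were called in these comparisons, and KLF5 in HIF-2α knockdown against wild type (limma adjusted p = 0.0559) and CPS1 between the knockdowns (limma adjusted p = 0.0556) were not. All genes called in HIF-1α knockdown against wild type, 177, were 85 with centring, 396 with the arrays of those 2 groups alone, 22 without the raised-floor arrays, 605 with array weights and 50 to 483 with 1 array left out (HIF-1α knockdown replicate 3 gave the lowest count, wild type replicate 3 the highest). In HIF-2α knockdown against wild type, 145, they were 404 after quantile normalization, 72 with centring, 64 with those 2 groups alone, 37 without the raised-floor arrays, 286 with an intensity trend and 61 to 219 with 1 array left out (lowest for wild type replicate 4, highest for replicate 3). Between the knockdowns, 509, they were 888, 337 and 259 under quantile normalization, centring and without the raised-floor arrays, 980 with array weights and 211 to 618 with 1 array left out (lowest for HIF-1α knockdown replicate 3, highest for HIF-2α knockdown replicate 1). HIF1A in HIF-1α knockdown was -1.24 without the raised-floor arrays and no longer called (limma adjusted p = 0.103). Calls gained were AFP in HIF-1α knockdown with those 2 groups alone (-0.47, limma adjusted p = 0.0358), EPCAM between the knockdowns with the mean of its probe sets (0.50) and KRT19 there with array weights (0.49). Signs changed only for differences that were not called. With quantile normalization these were GPC3 in HIF-1α knockdown (0.01) and, in HIF-2α knockdown, AFP (0.03), GPC3 (0.06), KRT19 (-0.02) and SOX9 (-0.08). CD44 in HIF-1α knockdown was -0.01 with centring and 0.00 with array weights, which gave KRT19 -0.04 and SOX9 -0.02 in HIF-2α knockdown. Without the raised-floor arrays SOX9 was -0.08 in HIF-2α knockdown and CD44 0.00 between the knockdowns. With 1 array left out the ranges were -0.15 to 0.03 for CD24 and -0.02 to 0.04 for CD44 in HIF-1α knockdown. In HIF-2α knockdown they were -0.18 to 0.12 for AFP, -0.20 to 0.07 for GPC3, -0.06 to 0.17 for KRT19, -0.05 to 0.05 for SOX9 and -0.01 to 0.05 for CD44, and between the knockdowns -0.01 to 0.03 for CD44. Fits with fewer arrays have less power by construction, and the cause of the other changes was not tested. Signals near the floor, as for CD44 and the let-7 genes, limit what these arrays can show.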
